A study of Mus musculus with 21 samples.

Results

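Transcript levels of 9 genes whose proteins bind spindle microtubules, Map4, Prc1, Hmmr, Tacc3, Ckap5, Mapre1, Mapre3, Clasp1 and Clasp2, were described in oocytes from mice with 6 combinations of Kif11 allele and Cre driver. The 9 genes were taken from a list of names and not by a threshold on their values. The list was chosen with earlier results of these data known. Each name matched a single Ensembl ID among the 54232 in the count table. Poly(A) RNA of 21 libraries, each of 3 fully grown oocytes at the germinal vesicle stage, had been amplified as full-length cDNA and sequenced.

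The oocyte spindle is built without centrosomes, from microtubules that are nucleated around the chromosomes and then sorted into a bipolar array. KIF11 is a tetrameric kinesin that slides antiparallel microtubules apart, while the proteins described here act on the same microtubules without being its relatives. They stabilise or bundle the lattice (MAP4, PRC1), tie microtubules together at poles and along fibres (HMMR, TACC3), add tubulin at plus ends (CKAP5), or mark and rescue growing ends (MAPRE1 and MAPRE3, which are EB1 and EB3, and the CLASPs). Fully grown oocytes transcribe little and draw on stored mRNA for the meiotic divisions.

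The upstream sequences of 3 members are shown: Tacc3 had the highest level of the 9, and Mapre1 and Mapre3 were the paralogs with the widest gap. Each is the 250 bases before the start that RefSeq lists on GRCm38.p6, written on the forward strand on which all 3 genes lie, with CpG dinucleotides in capitals. RefSeq lists 1 start for Tacc3 and for Mapre1 and 2 for Mapre3, of which the most upstream was taken.
Tacc3, chr5:33657878-33658127: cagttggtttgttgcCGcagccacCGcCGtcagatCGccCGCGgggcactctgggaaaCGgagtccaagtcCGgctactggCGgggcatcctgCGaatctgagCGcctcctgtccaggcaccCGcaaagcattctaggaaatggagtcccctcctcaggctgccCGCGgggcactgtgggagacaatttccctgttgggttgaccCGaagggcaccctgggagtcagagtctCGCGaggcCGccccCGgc
Mapre1, chr2:153741037-153741286: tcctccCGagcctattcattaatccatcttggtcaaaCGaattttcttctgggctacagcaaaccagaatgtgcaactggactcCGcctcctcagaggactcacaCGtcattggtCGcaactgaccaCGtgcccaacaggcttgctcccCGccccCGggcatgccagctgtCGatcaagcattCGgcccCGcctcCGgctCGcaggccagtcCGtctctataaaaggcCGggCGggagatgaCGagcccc
Mapre3, chr5:30814391-30814640: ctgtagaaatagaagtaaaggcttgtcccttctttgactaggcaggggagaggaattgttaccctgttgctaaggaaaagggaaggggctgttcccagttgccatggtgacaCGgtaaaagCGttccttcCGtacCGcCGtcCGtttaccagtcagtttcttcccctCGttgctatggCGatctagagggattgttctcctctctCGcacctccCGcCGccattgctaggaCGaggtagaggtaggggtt
The window of Tacc3 held 19 CpG, that of Mapre1 17 and that of Mapre3 12. All 3 were above the median of 6 over 32851 windows of the same length, of which 92.1% held at least 1 CpG. Of the other members with a listed start, Map4 held 36, Clasp2 32, Prc1 21, and Ckap5 and Hmmr 14 each, counted at the most upstream start where RefSeq lists more (Map4, Prc1 and Clasp2). The CpG number did not follow the order of transcript levels, since Clasp2, the lowest, had more than Tacc3. Which starts oocytes use was not measured.

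Without Cre there were 4 libraries of wt/fl and 4 of fl/del oocytes. With Spo11-Cre there were 5 of wt/fl and 4 of fl/del, and the fl/fl genotype had 2 libraries with Gdf9-Cre and 2 with Zp3-Cre. Every mouse, controls included, carried at least 1 floxed Kif11 allele, and the del allele is a constitutive deletion that is present in all cells of the animal. Spo11-Cre acts early in meiotic prophase. The paper describes Gdf9-Cre and Zp3-Cre as oocyte-specific drivers and does not give the stage at which each acts. The methods give an age of 3 to 4 months and 1 or 2 libraries from each mouse. Libraries of a group may thus share a mouse, so that p-values can be too small and confidence intervals too narrow. Most library names of the wt/fl and fl/del groups share a prefix in pairs, and the labels do not say whether it stands for a mouse. The methods give a total of 17 libraries without listing them by group, the number that the labels give to wt/fl and fl/del with and without Spo11-Cre. The fl/fl libraries differ from them in genotype, driver and set of libraries together, which cannot be told apart.

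Total counts were 7205010 to 18454549 per library, with the lowest in fl/del replicate 3, and 7801470 to 10759741 in the 4 fl/fl libraries. Kif11 itself was at 23.8 to 43.2 CPM (the count per library total, scaled) in wt/fl, 17.6 to 30.5 in wt/fl Spo11-Cre, 7.50 to 14.6 in fl/del and 1.08 to 2.70 in fl/del Spo11-Cre. With the other drivers Kif11 was at 4.90 to 5.11 CPM (Gdf9-Cre) and 4.27 to 7.95 (Zp3-Cre). The labelled tissue was checked by its markers. Of 12 oocyte markers, 11 were above 100 CPM in every library. Of 18 follicle cell markers, 16 were under 10 CPM in every library, and Foxl2 and Ptx3 were at 0 throughout. The summed follicle cell markers were at 75.7 to 128 CPM, mostly from Cyp19a1 and Nr5a2, with overlapping ranges in all groups. Zp3-Cre replicate 1 stood apart, with a median correlation of 0.948 to the other libraries against 0.966 to 0.979 elsewhere, and results that rest on it are given without it. In libraries of whole oocytes, fewer transcripts per oocyte and a smaller share of all poly(A) RNA cannot be told apart.

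Levels of different genes were compared in TPM, the deposited values per length and library. In wt/fl, Tacc3 was far above the other members, at 1721 ± 191 TPM (SD, n = 4), which placed it at rank 72 of 22281 genes with a value above 0. Prc1 followed at 179 ± 22.1 TPM, at rank 979. Together they made up 85.3% and 8.86% of the summed TPM of the 9 genes. The next levels were those of Mapre1 (45.9 ± 2.37 TPM) and Ckap5 (38.1 ± 3.42), then Hmmr (16.8 ± 2.93) and Map4 (11.5 ± 2.01). Clasp1 (2.96 ± 0.228), Mapre3 (1.32 ± 0.862) and Clasp2 (0.706 ± 0.261) were the lowest. Kif11 lay between Ckap5 and Hmmr, at 17.6 ± 4.44 TPM.

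This order held in single libraries for most neighbours. Tacc3 was above Prc1, Prc1 above Mapre1, Hmmr above Map4, Map4 above Clasp1, and Clasp1 above Mapre3 in 21 of 21 libraries, and Mapre1 was above Ckap5 in 18 of 21. Mapre3 was above Clasp2 in 12 of 21, so these neighbours did not differ beyond their spread. Hmmr and Map4 had ranges that overlapped in wt/fl although Hmmr was higher within each library. Kif11 was above Hmmr in 3 of 21 libraries. In fl/del Spo11-Cre the median ratio of Tacc3 to Kif11 TPM was 1698, against 99.0 in wt/fl, and Clasp2, the rarest member, was at 0.825 to 1.83 times the TPM of Kif11 there against 0.0239 to 0.0639 times in wt/fl.

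**Figure D1:**
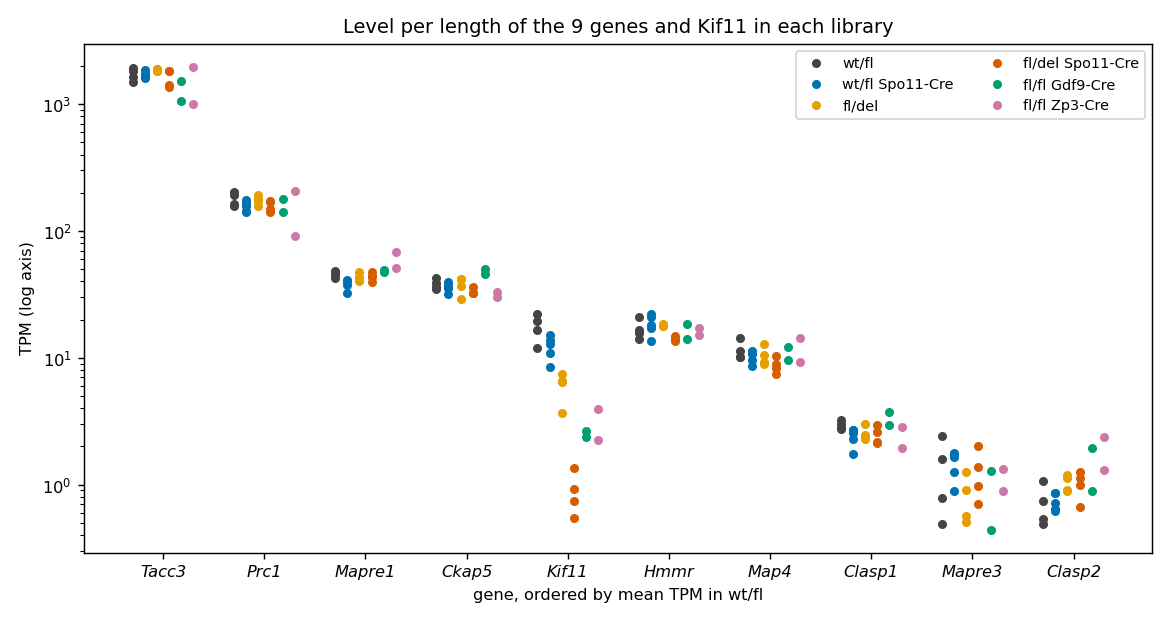
TPM (log axis) of the 9 genes and Kif11 in each of 21 libraries, with genes ordered by their mean in wt/fl and points coloured by group. Tacc3 lies between 997 and 1958 TPM in every library and Clasp2 between 0.489 and 2.37, while the fl/del Spo11-Cre points of Kif11, at 0.544 to 1.36 TPM, lie below those of all other libraries and its wt/fl points at 11.9 to 22.3.

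None of the 9 genes passed the test (edgeR quasi-likelihood, Benjamini-Hochberg adjusted p under 0.05 over all genes tested) between any 2 of the 4 Spo11-Cre background groups. All 9 were among the 22383 genes tested. Of all genes tested, the shares called against wt/fl were 2.19% (wt/fl Spo11-Cre), 0.0223% (fl/del) and 0.197% (fl/del Spo11-Cre). Against wt/fl Spo11-Cre they were 0.0357% (fl/del Spo11-Cre) and 0.201% (fl/del), and between fl/del oocytes with and without Spo11-Cre 0.241%. With such shares, 0 of 9 is near the background. The interaction, which asks whether Spo11-Cre had a different effect beside the del allele than beside the wt allele, also called 0 of 9 (0.103% of all genes). At an unadjusted p under 0.05, the numbers of members were 1, 0, 1, 2, 0 and 2 for the 6 pairs in that order, and 2 for the interaction. Where 2 members were under 0.05, so were 7.11% (fl/del Spo11-Cre against wt/fl Spo11-Cre), 8.32% (against fl/del) and 10.3% (interaction) of all genes tested. In the other pairs the share of all genes was 8.52% or more. Whether 2 of 9 exceeds these shares was not tested. DESeq2 also called 0 of 9 in each of these comparisons.

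In fl/del Spo11-Cre, 8 of 9 members had a fitted value below that in wt/fl, with a median of -0.15 on the log2 scale against 0.01 over all genes tested. The same number, 8 of 9, lay below fl/del, with a median of -0.16 against 0.01. Between fl/del and wt/fl, 4 of 9 were lower and the median was 0.00 on the log2 scale, against 0 over all genes. Between wt/fl Spo11-Cre and wt/fl, 5 of 9 were lower, with a median of -0.015 against 0.03. In fl/del Spo11-Cre against wt/fl Spo11-Cre, 6 of 9 were lower, with a median of -0.124 against -0.0009. For fl/del against wt/fl Spo11-Cre, 3 of 9 were lower, with a median of 0.054 against -0.0173. The interaction was negative for 6 of 9. The share of all genes with a lower fitted value is not given here. These comparisons share libraries, and the members are not replicates of each other.

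**Figure D2:**
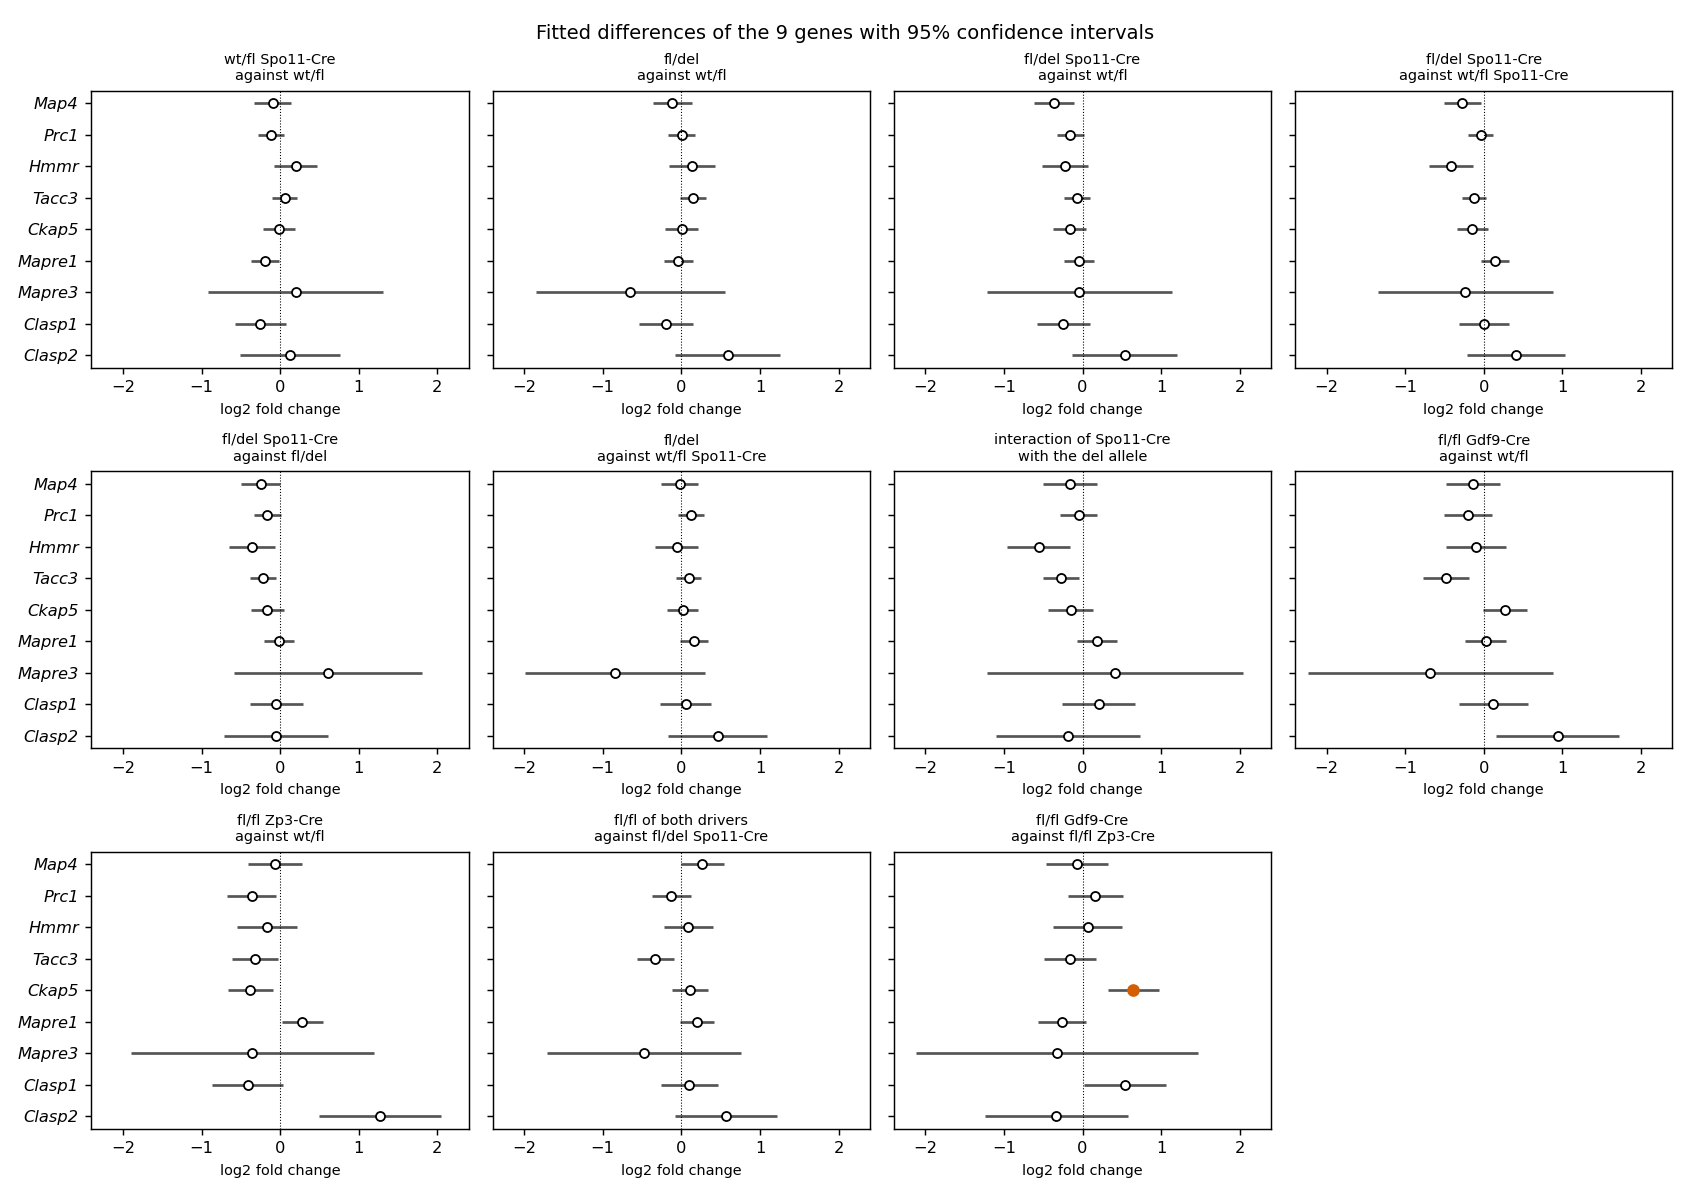
Fitted log2 fold change (points) with 95% confidence interval (lines) of the 9 genes in each of 11 comparisons, first group minus second; filled points have an adjusted p under 0.05 and open points do not. Ckap5 in fl/fl Gdf9-Cre against fl/fl Zp3-Cre, at 0.65, is the single filled point, and the intervals of Mapre3 and Clasp2 are the widest.

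Map4 (ENSMUSG00000032479, chr9:109931460-110083955 on GRCm38, forward strand) encodes a structural protein that binds along the microtubule lattice in non-neuronal cells. Its levels were 70.4, 88.0, 63.8 and 62.1 CPM in wt/fl and 69.6, 71.7, 67.7, 54.9 and 63.2 in wt/fl Spo11-Cre. The fl/del values were 64.7, 56.2, 59.4 and 78.9 CPM, and in fl/del Spo11-Cre 52.1, 48.8, 64.7 and 55.5. The ranges of all 4 groups overlapped, with the lowest library in fl/del Spo11-Cre and the highest in wt/fl. The fl/del Spo11-Cre mean, 55.3 ± 6.86 CPM (SD, n = 4), was 77.8% of that in wt/fl, 71.1 ± 11.8 (n = 4). The fitted difference was -0.37 on the log2 scale (SE 0.12, 95% confidence interval -0.615 to -0.115), with an unadjusted p of 0.00489 and an adjusted p of 0.269 (edgeR). Against wt/fl Spo11-Cre the difference was -0.27 (SE 0.12, adjusted p 0.702), and against fl/del it was -0.25 (SE 0.12, adjusted p 0.601). None of these passed the test. For fl/del against wt/fl the interval, -0.366 to 0.133, leaves room for changes of either sign.

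Prc1 (ENSMUSG00000038943, chr7:80294450-80316259, forward strand) encodes a crosslinker of antiparallel microtubules that organises the central spindle. It was at 532, 632, 554 and 674 CPM in wt/fl, and at 538, 489, 603, 576 and 514 in wt/fl Spo11-Cre. The fl/del libraries were at 647, 579.5, 554 and 597 CPM, and in fl/del Spo11-Cre at 508, 496, 583 and 570.2. The groups overlapped, and the means lay between 539 and 598 CPM. The 6 fitted differences ran from -0.16 to 0.12 on the log2 scale, and their 95% intervals together from -0.333 to 0.284, so that no change of more than 1.26-fold in either direction fell inside them. The lowest adjusted p over the 6 pairs was 0.539 (edgeR). Of the exonic bases of Prc1, 11.1% are shared with Rccd1 on the opposite strand, and the kit does not mark strand.

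Hmmr (ENSMUSG00000020330, chr11:40701395-40733422, reverse strand) encodes a pole protein that links microtubules and positions TPX2. Its values were 31.4, 34.4, 37.1 and 45.8 CPM in wt/fl, and with Spo11-Cre beside the wt allele 38.2, 30.7, 41.1, 50.4 and 49.1. The fl/del values were 41.0, 40.6, 41.1 and 39.4 CPM, and in fl/del Spo11-Cre 30.4, 33.4, 31.2 and 33.2. The fl/del values were all higher than the highest fl/del Spo11-Cre value, while wt/fl overlapped with both. The fitted difference of fl/del Spo11-Cre from fl/del was -0.36 on the log2 scale (SE 0.15, 95% confidence interval -0.651 to -0.066), with an unadjusted p of 0.0173 and an adjusted p of 0.545 (edgeR). The two-sided exact permutation test of the CPM gave 0.0286, the smallest p that 4 against 4 libraries allow, and 0.46 after adjustment over the 90 member tests. That test takes libraries as independent, although those of a group may share a mouse. Against wt/fl Spo11-Cre the difference was -0.42 (SE 0.14, unadjusted p 0.00394, adjusted p 0.702). The interaction was -0.56 (SE 0.20, 95% confidence interval -0.960 to -0.154, unadjusted p 0.00766, adjusted p 0.285). None passed the test over all genes.

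Tacc3 (ENSMUSG00000037313, chr5:33658128-33678995, forward strand) encodes a partner of CKAP5 and clathrin that is recruited to spindle fibres after phosphorylation by Aurora A. It was at 2187, 2627, 2395 and 2740 CPM in wt/fl, and at 2377, 2470, 2724, 2499 and 2653 in wt/fl Spo11-Cre. The fl/del libraries were at 2627, 2670, 2878 and 2746 CPM, and in fl/del Spo11-Cre at 2698, 2140, 2668 and 2011. The fl/del Spo11-Cre libraries spread the most, with 2 near the fl/del level and 2 below every other library of the 17. The difference from fl/del was -0.22 on the log2 scale (SE 0.08, unadjusted p 0.0114, adjusted p 0.507, edgeR) and from wt/fl -0.07 (95% confidence interval -0.233 to 0.098). The interaction was -0.27 (SE 0.11, adjusted p 0.369). Of its exonic bases, 8.14% are shared with Tmem129 on the opposite strand.

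Ckap5 (ENSMUSG00000040549, chr2:91526762-91620664, forward strand) encodes the polymerase that binds TACC3 and speeds tubulin addition at plus ends. It was at 135.5, 136.5, 166 and 149 CPM in wt/fl, and at 141.5, 147, 155, 126 and 145 in wt/fl Spo11-Cre. The fl/del libraries were at 160.5, 162, 116 and 142 CPM, and in fl/del Spo11-Cre at 128, 146, 127 and 125. The lowest of these 17 values was that of fl/del replicate 3, the library with the lowest total count. The 6 fitted differences lay between -0.17 and 0.02 on the log2 scale, with no adjusted p under 0.614 (edgeR) and intervals that allow at most 1.30-fold. In TPM, Tacc3 was at 38.4 to 66.0 times Ckap5 in the 17 libraries, with a median of 46.9.

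**Figure D3:**
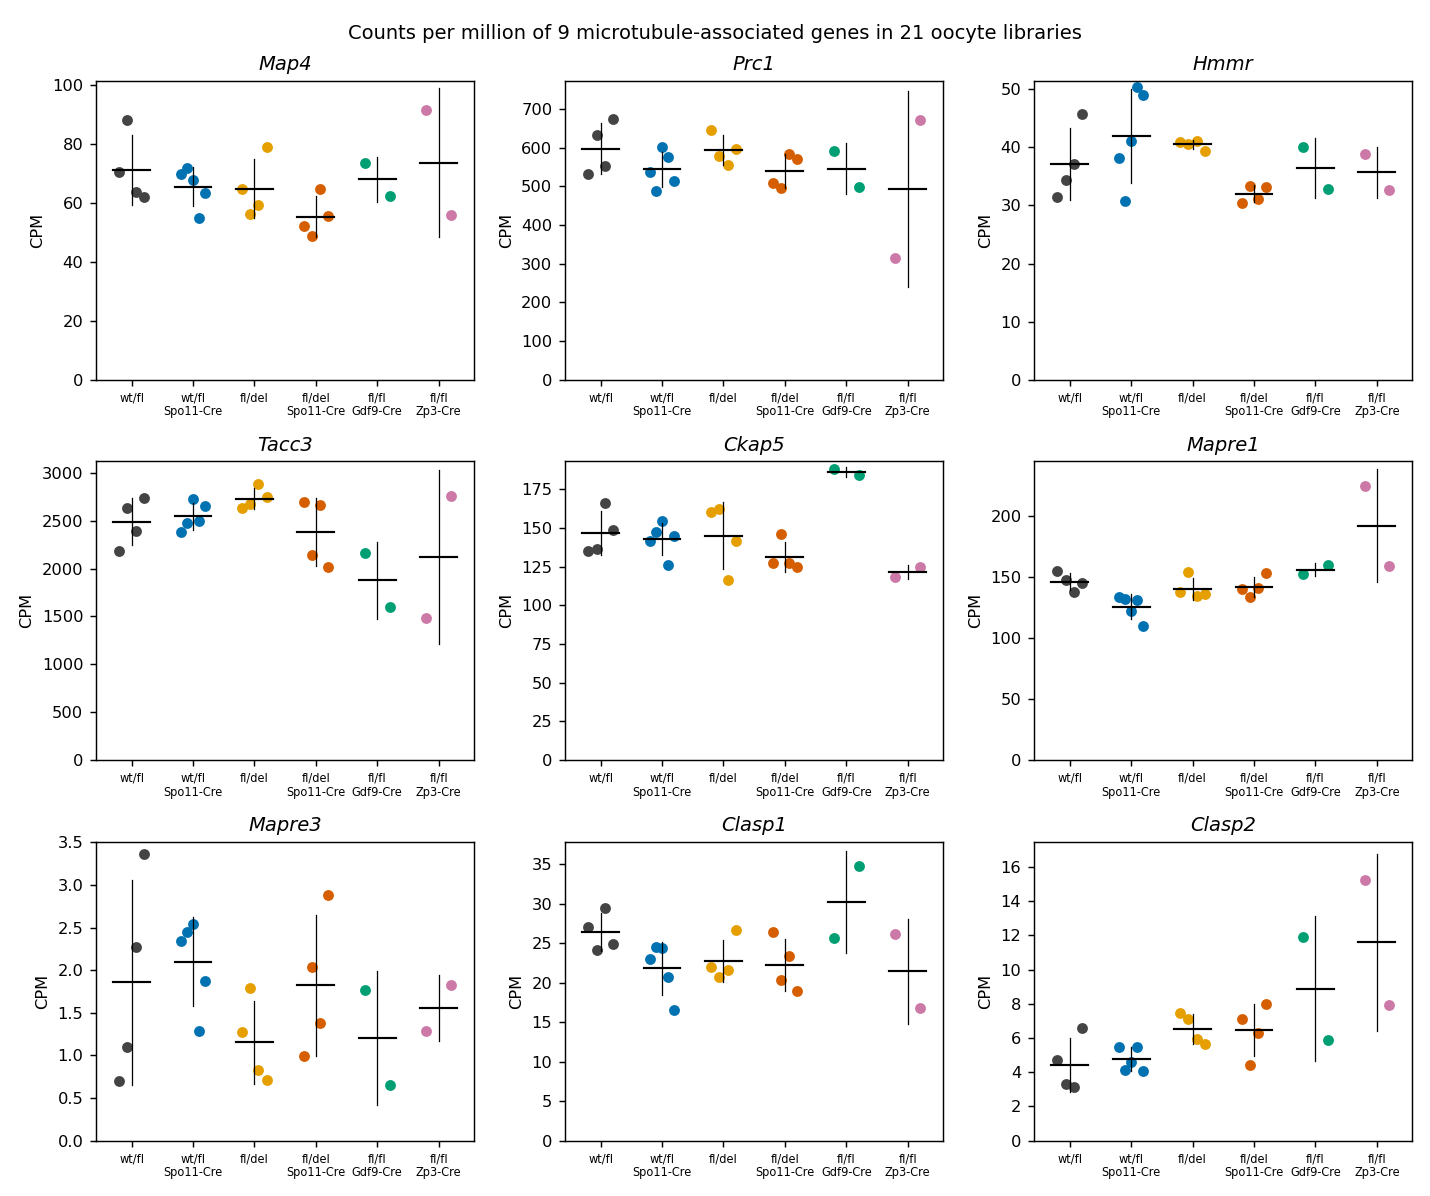
CPM of each gene in each library, by group; points are libraries, long horizontal lines are group means and thin vertical lines are 1 SD either side. Hmmr is lower in all fl/del Spo11-Cre libraries (30.4 to 33.4) than in all fl/del libraries (39.4 to 41.1), and in fl/fl Zp3-Cre the pair of libraries differs widely for Prc1, Tacc3 and Map4.

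The end-binding proteins MAPRE1 and MAPRE3 recognise the growing microtubule tip and recruit other factors to it. Mapre1 (ENSMUSG00000027479, chr2:153741274-153773310, forward strand) was the least variable member within the 4 Spo11-Cre background groups, though not over all 21 libraries. It was at 138 to 155 CPM in wt/fl, 109.6 to 133 in wt/fl Spo11-Cre, 134 to 154 in fl/del and 133 to 153 in fl/del Spo11-Cre. The wt/fl Spo11-Cre libraries all lay below the wt/fl and fl/del libraries. The fitted difference from wt/fl was -0.19 on the log2 scale (SE 0.09, unadjusted p 0.0333, adjusted p 0.289, edgeR), and the two-sided exact permutation p of 0.0159 was 0.46 after adjustment over the member tests. Mapre3 (ENSMUSG00000029166, chr5:30814641-30866106, forward strand) was at 0.653 to 3.36 CPM over the 21 libraries, from 495 counts in all. Its intervals over the 6 genotype pairs include changes of up to 3.97-fold. Per length, Mapre1 was at 19.1 to 97.8 times Mapre3 in the 17 libraries (median 38.1).

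The CLASPs bind near plus ends and at kinetochores and let shrinking microtubules regrow. Clasp1 (ENSMUSG00000064302, chr1:118389058-118612678, forward strand) was at 24.1 to 29.4 CPM in wt/fl, 16.5 to 24.5 in wt/fl Spo11-Cre, 20.8 to 26.7 in fl/del and 19.0 to 26.4 in fl/del Spo11-Cre. Clasp2 (ENSMUSG00000033392, chr9:113741473-113919682, forward strand) was at 4.69, 3.30, 3.11 and 6.56 CPM in wt/fl, 4.08 to 5.48 in wt/fl Spo11-Cre, 5.64 to 7.48 in fl/del and 4.42 to 7.98 in fl/del Spo11-Cre. The fitted values of the paralogs had opposite signs against wt/fl in both del groups. They also did in wt/fl Spo11-Cre (-0.25 for Clasp1 and 0.13 for Clasp2) and in fl/fl Zp3-Cre (-0.41 and 1.27). In fl/fl Gdf9-Cre both were positive (0.12 and 0.94). All these comparisons share the wt/fl libraries, so the signs are not independent. In fl/del Spo11-Cre the fitted difference from wt/fl was -0.25 for Clasp1 (95% confidence interval -0.584 to 0.094) and 0.54 for Clasp2 (-0.129 to 1.203). In fl/del it was -0.20 for Clasp1 (-0.537 to 0.143) and 0.59 for Clasp2 (-0.079 to 1.26). None passed the test (adjusted p 0.591 to 0.786, edgeR). The ratio of Clasp1 to Clasp2 TPM had a median of 4.61 in wt/fl (2.67 to 6.66), 2.96 in wt/fl Spo11-Cre (2.67 to 4.17), 2.31 in fl/del (2.06 to 3.33) and 2.61 in fl/del Spo11-Cre (1.68 to 3.25), with overlapping ranges.

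The Gdf9-Cre and Zp3-Cre libraries show the members in oocytes where both Kif11 alleles were floxed. Against wt/fl, 0 of 9 members passed in fl/fl Gdf9-Cre (background 1.48% of 23225 genes), and 0 of 9 in fl/fl Zp3-Cre (2.27%). Against fl/del Spo11-Cre, 0 of 9 passed with both fl/fl groups combined (2.9%). At an unadjusted p under 0.05 (edgeR) the numbers were 2, 5 and 1, where 11.7%, 13.1% and 14.0% of all genes tested were under it. DESeq2 called 0, 1 (Clasp2) and 0. Between the drivers, 1 of 9 passed (0.891%), which was Ckap5. Mitochondrial genes took 0.268 to 0.510% of the counts in these 4 libraries against 0.168 to 0.281% in the other 17, and the part of this in the results was not tested.

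Ckap5 was at 188.5 and 184 CPM in fl/fl Gdf9-Cre and at 118 and 125 in fl/fl Zp3-Cre. The Gdf9-Cre values were above those of all other libraries, and the Zp3-Cre values were among the lowest. The difference between the drivers was 0.65 on the log2 scale (SE 0.16, 95% confidence interval 0.324 to 0.972, adjusted p 0.0264, edgeR), which is 1.57-fold. An exact permutation test of 2 against 2 libraries cannot go below 0.333. The call was lost when only these 4 libraries were fitted (0.67, adjusted p 0.731), in limma on the deposited TPM (0.58, adjusted p 0.100), and without fl/fl Gdf9-Cre replicate 1 (adjusted p 0.106), fl/fl Gdf9-Cre replicate 2 (0.109) or fl/fl Zp3-Cre replicate 1 (0.212). In each of these the sign stayed the same. Against wt/fl, the fitted differences of Ckap5 were 0.27 in Gdf9-Cre (SE 0.14, adjusted p 0.438) and -0.38 in Zp3-Cre (SE 0.14, adjusted p 0.185).

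Tacc3 was at 2160 and 1595 CPM in fl/fl Gdf9-Cre and at 1480 and 2761 in fl/fl Zp3-Cre. Both Gdf9-Cre values were below the lowest wt/fl library, and the fitted difference was -0.48 (SE 0.15, unadjusted p 0.00175, adjusted p 0.0839, edgeR). It was -0.27 (adjusted p 0.790) without fl/fl Gdf9-Cre replicate 2 and passed the test without fl/fl Gdf9-Cre replicate 1 (-0.70, adjusted p 0.0268). Where 1 library of a pair is left out, the fit takes the spread from the other groups and assumes that the lone library varies like them. Both fl/fl groups combined were -0.33 from fl/del Spo11-Cre (SE 0.12, adjusted p 0.125), and this value moved with single libraries. It was -0.12 (adjusted p 0.720) without fl/fl Zp3-Cre replicate 1 and -0.22 (adjusted p 0.471) without fl/fl Gdf9-Cre replicate 2. It passed without fl/fl Gdf9-Cre replicate 1 (-0.44, adjusted p 0.0366) or fl/fl Zp3-Cre replicate 2 (-0.62, adjusted p 3.18e-05). Prc1 in the same comparison was at 0.11 (adjusted p 0.739) without fl/fl Zp3-Cre replicate 1 and at -0.48 (adjusted p 0.00140) without fl/fl Zp3-Cre replicate 2. The ratio of Tacc3 to Ckap5 TPM was 23.1 and 30.5 in the Gdf9-Cre libraries and 33.3 and 59.0 in the Zp3-Cre libraries, against 38.4 to 66.0 in the 17 Spo11-Cre background libraries.

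In fl/fl Zp3-Cre the pair of libraries differed widely. Prc1 was at 315 CPM in replicate 1 and 673 in replicate 2, Map4 at 91.4 and 55.8, Mapre1 at 224 and 159, and Clasp2 at 15.3 and 7.94. Replicate 1 is the library that stood apart from all others, and for Prc1, Tacc3 and Mapre1 replicate 2 was at or near the upper end of the wt/fl range. With both libraries, Clasp2 was 1.27 above wt/fl on the log2 scale (SE 0.39, 95% confidence interval 0.498 to 2.05, adjusted p 0.0661, edgeR). It passed in DESeq2 (1.30, adjusted p 0.0131) and without wt/fl replicate 4 (1.53, adjusted p 0.0291). In fl/fl Gdf9-Cre, Clasp2 was at 11.9 and 5.87 CPM, and its difference from wt/fl had the same sign (0.94, SE 0.39, 95% confidence interval 0.160 to 1.72, unadjusted p 0.0190, adjusted p 0.292). Without fl/fl Zp3-Cre replicate 1, 0 members passed against wt/fl, and Prc1 was at 0.12, Tacc3 at 0.10, Mapre1 at 0.07 and Clasp2 at 0.79 on the log2 scale. Without fl/fl Zp3-Cre replicate 2, 4 passed: Prc1 at -1.07 (adjusted p 2.66e-06), Tacc3 at -0.89 (4.99e-05), Clasp2 at 1.64 (0.0207) and Mapre1 at 0.48 (0.0460). The adjusted p-values then describe the library that stood apart alone, with the spread of the other groups. Between the drivers, Prc1 was at -0.31 (adjusted p 0.634) without replicate 1 and at 0.88 (adjusted p 0.000706) without replicate 2, with opposite signs. With 2 libraries, the driver and these single libraries cannot be told apart.

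The remaining members gave no call with either driver. Hmmr was at 40.2 and 32.9 CPM in fl/fl Gdf9-Cre and 38.8 and 32.6 in fl/fl Zp3-Cre, inside the wt/fl range of 31.4 to 45.8. Map4 was at 73.3 and 62.4 CPM in Gdf9-Cre, and its fitted difference from wt/fl was -0.14 (95% confidence interval -0.476 to 0.204). Clasp1 was at 25.7 and 34.8 CPM in Gdf9-Cre and at 26.2 and 16.7 in Zp3-Cre, a difference between the drivers of 0.54 (SE 0.26, adjusted p 0.654).

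The spread between libraries differed among the members. Within the 4 Spo11-Cre background groups, the coefficient of variation between libraries was 6.49% for Mapre1, 8.69% for Prc1, 9.33% for Tacc3 and 10.1% for Ckap5. It was 13.2% for Clasp1, 13.6% for Hmmr and 13.7% for Map4, then 23.2% for Clasp2 and 45.3% for Mapre3. Counting error alone would give 0.725% for Tacc3 and 1.48% for Prc1, so the depth did not limit these genes, but 15.4% for Clasp2 and 27.1% for Mapre3. Over the 6 genotype pairs, the 95% intervals left room for at most 1.26-fold for Prc1, 1.30-fold for Mapre1, Ckap5 and Tacc3, 1.5-fold for Clasp1, 1.53-fold for Map4, 1.62-fold for Hmmr and 2.39-fold for Clasp2.

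**Figure D4:**
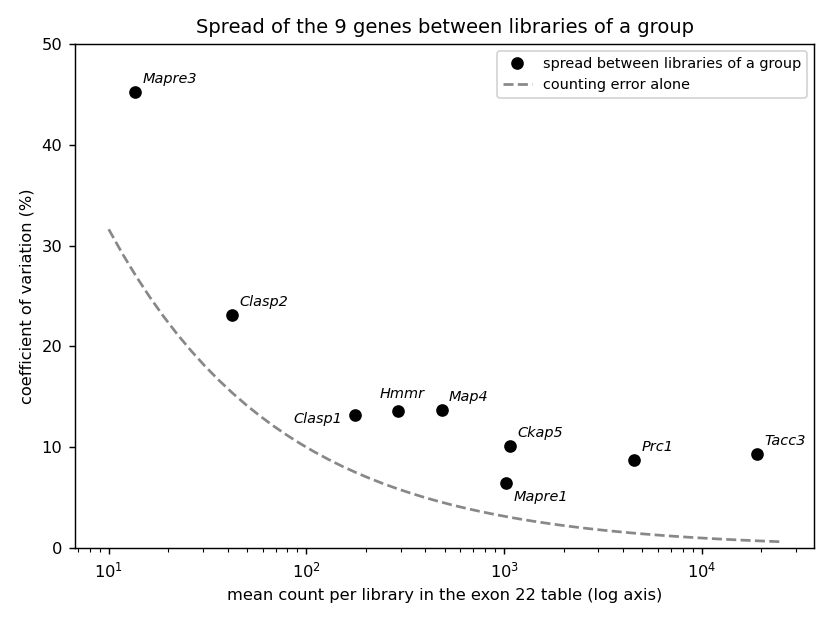
Coefficient of variation (%) between libraries of a group, pooled over the 4 Spo11-Cre background groups, against the mean count per library in the exon 22 table, the lower of the deposited counts (log axis). Points are genes and the dashed line is counting error alone; all 9 points lie above the line, with Mapre3 at 45.3% and Mapre1 at 6.49%.

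Other microtubule-associated genes were taken from 4 lists by function, 75 genes of which 70 were tested. By wt/fl TPM, Tacc3 ranked 1 and Prc1 ranked 8 of these 84 genes with the members included. Of 17 tested spindle fibre and bundling genes, 17 tested plus-end partners, 19 tested structural proteins and 17 tested severing, capping and destabilizing proteins, 0 were called in fl/del or fl/del Spo11-Cre against wt/fl, nor between fl/del Spo11-Cre and wt/fl Spo11-Cre or fl/del, nor between fl/del and wt/fl Spo11-Cre. In fl/del Spo11-Cre against wt/fl, the median log2 differences of these lists were -0.01, -0.12, 0.12 and -0.07 in that order, against 0.01 over all genes. With Spo11-Cre beside the wt allele, 1 of the 70 was higher and 2 were lower than in wt/fl, where 2.19% of all genes were called. Mtus2, which encodes an EB1-binding protein, was at 310.2 ± 23.5 CPM against 242 ± 20.4 (0.38, SE 0.09, adjusted p 0.0106, edgeR). Kif20a, a kinesin of the central spindle, was at 85.6 ± 6.24 against 120 ± 13.6 (-0.46, SE 0.10, adjusted p 0.00687). Gtse1, a partner of EB1 that restrains microtubule depolymerisation, was at 35.1 ± 4.26 against 51.5 ± 11.8 (-0.53, SE 0.14, adjusted p 0.0327). For Mtus2 the interaction was also called (background 0.103%), at -0.58 (SE 0.13, adjusted p 0.0485), with fl/del Spo11-Cre at 260.1 ± 30.3 CPM and fl/del at 296 ± 29.3. Each of these calls was lost without at least 1 single library. Without wt/fl replicate 4, Kif20a (-0.38, adjusted p 0.0710) and Gtse1 (-0.37, adjusted p 0.273) did not pass. Kif20a passed when any other library of the compared groups was left out. Gtse1 was also lost without wt/fl replicate 2 (adjusted p 0.109) or wt/fl Spo11-Cre replicate 1 (0.0895) or 3 (0.0513). Mtus2 did not pass without wt/fl replicate 1 (adjusted p 0.0515), wt/fl replicate 2 (0.0683) or wt/fl Spo11-Cre replicate 5 (0.0529), nor its interaction without most single libraries (adjusted p up to 0.133).

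In fl/fl Zp3-Cre against wt/fl, 4 of the 70 listed genes were called higher and 4 lower, where 2.27% of all genes were called. Slain1, whose protein promotes CKAP5 activity at plus ends, was at 143 and 81.6 CPM against 46.9 ± 3.81 in wt/fl (1.14, SE 0.17, adjusted p 8.52e-06, edgeR). Tpx2, which encodes a spindle assembly factor that activates Aurora A, was at 252 and 385 against 422 ± 26.1 (-0.50, SE 0.13, adjusted p 0.0222). Tacc2, a relative of Tacc3, was at 156 and 81.2 against 65.5 ± 6.28 (0.74, SE 0.16, adjusted p 0.00416). For all 3 the library farther from wt/fl was replicate 1. Mtus1 (0.46, SE 0.13, adjusted p 0.0424) and Cltc, the clathrin heavy chain (0.56, SE 0.15, adjusted p 0.0250), were called higher too. Clip1, a plus-end tracking protein (-0.63, SE 0.16, adjusted p 0.0136), Map1b, a structural protein (-0.66, SE 0.16, adjusted p 0.00890), and Kif23, a kinesin of the central spindle (-0.57, SE 0.12, adjusted p 0.00274), were called lower. For Mtus1, Cltc, Map1b and Kif23 replicate 1 was again the farther library. For Clip1 it was replicate 2, at 62.9 CPM, with 70.9 in replicate 1 and 96.2 ± 17.05 in wt/fl. Map1b was low in both libraries (115 and 129 CPM, against 179 ± 6.86 in wt/fl). Without fl/fl Zp3-Cre replicate 1, the library that stood apart, 0 of 70 were called in this comparison. Slain1 was then at 0.75 (adjusted p 0.0788), Clip1 at -0.66 (0.139), Tacc2 at 0.26 (0.833) and Tpx2 at -0.18 (0.854). Without fl/fl Zp3-Cre replicate 2, 5 were called higher and 11 lower. In fl/fl Gdf9-Cre against wt/fl, Kif20a was the single call among the 70 (background 1.48%; -0.82, SE 0.20, adjusted p 0.0154), which was lost without fl/fl Gdf9-Cre replicate 2 (-0.46, adjusted p 0.652) or wt/fl replicate 4 (adjusted p 0.0603). Slain1 was higher in the fl/fl groups than in fl/del Spo11-Cre (0.94, SE 0.15, adjusted p 1.54e-05), and it was the single gene called higher of the 70 there (background 2.9%). Map1b (-0.67, SE 0.12, adjusted p 0.000304), Tpx2 (-0.44, SE 0.11, adjusted p 0.00775) and Dlgap5, a spindle fibre protein (-0.44, SE 0.12, adjusted p 0.0251), were called lower. Map1b was at 245.9 and 153.6 CPM in Gdf9-Cre and 115 and 129 in Zp3-Cre, against 219.9 to 250.8 in fl/del Spo11-Cre. In this comparison, Gdf9-Cre replicate 1 of Map1b thus lay inside the range of fl/del Spo11-Cre. Slain1 and Map1b passed there whichever single library was left out, while Tpx2 did not without fl/fl Zp3-Cre replicate 1 (-0.28, adjusted p 0.174). Dlgap5 did not pass without fl/fl Zp3-Cre replicate 1 (adjusted p 0.308), fl/fl Gdf9-Cre replicate 2 (0.307), or fl/del Spo11-Cre replicate 1 (0.0559), 3 (0.222) or 4 (0.0562). Without fl/fl Zp3-Cre replicate 2, 5 were called higher and 10 lower. In Gdf9-Cre against Zp3-Cre, where 0.891% of all genes were called, 4 of the 70 passed. Eml6 (1.25, SE 0.30, adjusted p 0.0163) and Map1b (0.74, SE 0.18, adjusted p 0.0174) were higher, and Tacc2 (-0.73, SE 0.20, adjusted p 0.0452) and Cltc (-0.69, SE 0.18, adjusted p 0.0353) lower. None of these 4 calls held without fl/fl Zp3-Cre replicate 1, where the values were 0.79, 0.625, -0.24 and -0.49 in that order. Without fl/fl Gdf9-Cre replicate 1 they were 1.09, 0.369, -0.80 and -0.997, and only the call of Cltc held. Each such fit leaves 1 library in a group. These values cover only the 4 genes named, and other listed genes were called in such fits, also without fl/fl Zp3-Cre replicate 1.

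Over the 17 Spo11-Cre background libraries the members varied largely separately. Among the 36 pairs, Pearson's r of log2(CPM + 1) ran from -0.473 (Mapre1 with Hmmr) to 0.417 (Mapre3 with Ckap5), and it was 0.037 for Tacc3 with Ckap5 and -0.146 for Mapre1 with Mapre3. Of 13428 genes with a mean of at least 1 CPM, those most like Map4 were Agps (r = 0.800, Spearman's rho = 0.748), Txnip (0.796 and 0.762) and Rab3gap2 (0.776 and 0.733). Those most like Prc1 were Fbxl5 (0.825 and 0.838), Dcaf11 (0.819 and 0.696) and Atp9b (0.804 and 0.841). These are descriptions of the highest of many values over libraries that share depth and genotype, and no test was made of them.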

How the data were processed

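The members and the gene lists were chosen with earlier results of these data known. Reads were trimmed (fastp) and aligned to GRCm38 (HISAT2 2.2.1) by the authors, who took uniquely mapped reads into gene counts by featureCounts 2.0.3 with Ensembl release 93. The deposited counts over all exons were used as whole numbers without normalization, and the deposited TPM, whose making is not given in the sources used here, was used to compare genes. For the members, the lengths implied by TPM relative to Tacc3 equalled the exonic lengths of GENCODE M21. All-exon counts were 1.93 to 1.96 times (library medians) those of the table with Kif11 counted over exon 22, which served as an alternative. The table with Kif11 over exon 1 was not used.

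Fits used edgeR 4.0.16 in R 4.3.3 (TMM, glmQLFit, glmQLFTest; genes above 0 in at least 3 libraries), over 17 libraries for the Spo11-Cre background and over 21 where fl/fl groups enter. DESeq2 1.42.0 and limma 3.58.1, on log2(TPM + 1), were alternatives. Intervals are at 95%, from the fit. Exact permutation tests used scipy 1.17.1. Groups come from the labels, and no sample was left out. All 9 members and Kif11 are named throughout. From each list, called genes were named by lowest p, up to 3 per list and comparison, and the 3 genes with the highest Pearson's r to Map4 and to Prc1 were named as most like them. The code was tested on simulated data. Coordinates are those of GENCODE M21, and upstream sequences those of RefSeq on GRCm38.p6, in which 8 of 9 members had an entry.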

Additional observations from a re-analysis of the deposited data

Results flagged for a closer look

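Over 36 tests of a member in a group of 4 or 5 libraries, 1 library stood far from the others of its group. Ckap5 was at 146 CPM in fl/del Spo11-Cre replicate 2, against 125 to 128 CPM in the other libraries of that group. Chance alone sets apart about 1 in 20 such groups.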

How the results depend on the processing

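In the 6 pairs of the Spo11-Cre background and the interaction, 0 members were called under every alternative run, including those without 1 library. The alternatives include a fit that summed the libraries sharing a name prefix. In fl/fl Gdf9-Cre against wt/fl, 1 member (Tacc3) was called with no filter on low counts, and without single libraries the number was 0 to 1. In fl/fl Zp3-Cre against wt/fl it was 1 (Clasp2) in DESeq2 and 1 with filterByExpr, and 0 to 4 without single libraries. For both fl/fl groups against fl/del Spo11-Cre it was 1 (Tacc3) with no filter, and 0 to 2 without single libraries. Between the drivers, 0 were called in limma on TPM and 0 when only the 4 libraries compared were fitted, and 0 to 2 without single libraries. With the replicate block, Tacc3 was called in 2 comparisons that held none in the main fit: 1 member in fl/fl Gdf9-Cre against wt/fl (-0.45, adjusted p 0.00763) and 1 in both fl/fl groups against fl/del Spo11-Cre. Libraries of different groups with the same replicate number had a median correlation of 0.014 (range -0.097 to 0.107 over 24 pairs). For other numbers it was -0.009 (range -0.182 to 0.200). Pairing by number was thus not seen, though such correlations cannot exclude a weak one. No other member count changed under the block. The cause of these changes was not tested. Of 1773 alternative values of the 99 member differences, 0 reversed with a call on either side and 80 changed sign without any call. TMM and RLE scaling each moved 3 of 54 group means by 1 SD or more, all in fl/fl groups of 2 libraries, by at most 7.36%. Groups of 2 libraries and the low counts of Mapre3 and Clasp2 limit what could be seen.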
